A study of Mus musculus with 6 samples.

Results

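Type I interferons are known through the genes they switch on. The 36 interferon-stimulated genes described here were given as a list of symbols and were joined to the gene identifiers of the count tables. They comprise antiviral effectors, nucleic acid sensors and the factors that carry the interferon signal. All 36 were found among 56923 identifiers, and all 36 passed the filter on low counts that left 18273 genes for testing.

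Type I interferons are secreted proteins that bind the IFNAR1 and IFNAR2 receptor chains on the surface of most cells. The receptor kinases JAK1 and TYK2 then phosphorylate STAT2, which acts with IRF9 on a DNA element in the promoters of target genes, the interferon-stimulated response element. The products block translation of viral RNA, degrade RNA, trap virus particles or sense nucleic acids, and several of them feed back on the pathway itself. In kidney, both tubule cells and resident or infiltrating leukocytes can express these genes.

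RNA sequencing measured polyadenylated RNA in 6 whole snap-frozen kidneys of male mice, 3 per group, at 10 weeks of age. Pkd1 KO mice carried Pkd1flox/flox.Pax8rtTA.Tet-O-Cre, in which Pax8, a gene of tubule cells, drives a doxycycline-dependent activator that switches on Cre and deletes floxed Pkd1. Control mice carried Pkd1flox/flox.Tet-O-Cre without the activator and were described as non-cystic. Both groups had floxed Pkd1 alleles and the Cre transgene, and both drank doxycycline at 2 mg/ml with 5% sucrose for 14 days between postnatal days 28 and 42. The study's question, from its title and design text, concerned the inflammasome and inflammation in polycystic kidney disease, caused in people mostly by mutations of PKD1. Animals were kept free of specific pathogens. The kidneys remained whole, so undeleted cells of every type were present, and fewer cells of a type cannot be told apart from less RNA per cell.

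Counts assigned to genes were 51966474, 62983791 and 61614713 in Pkd1 KO libraries 1 to 3, against 50456629, 55548316 and 45020173 in control libraries 1 to 3. Expression is given as CPM, the reads of a gene scaled to a normalised library of 1000000 reads, and log2 fold changes are Pkd1 KO minus control ± standard error. Pkd1 itself, the targeted gene, had 8.77, 9.003 and 10.01 CPM in Pkd1 KO kidneys, against 30.01, 46.4 and 23.6 CPM in controls, and its log2 fold change was −1.85 ± 0.24, edgeR adjusted p = 0.00234. The sources used here do not name the floxed exons. The first principal component separated the groups and held 70.4% of the variance. By the names of the deposited tables, all 3 Pkd1 KO libraries came from 1 sequencing project and all 3 controls from another, so genotype and project cannot be told apart. Fold changes followed the GC content and length of genes across the whole table, and a second fit with offsets for both properties is given beside the results. In that fit Pkd1 had −0.34 ± 0.13 and was not called. The labels do not say that samples with the same number are related, and p-values measure the spread between these kidneys. Kidney tubule and podocyte markers were abundant, with sums over 10 genes of 4762 to 5308 CPM in Pkd1 KO kidneys, against 8195 to 14563 CPM in controls.

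More of the interferon-stimulated genes rose than fell in the Pkd1 KO kidneys. Of the 36, 15 rose (41.7%), 3 fell (8.33%) and 18 did not pass edgeR's quasi-likelihood test at an adjusted p of 0.05 over all tested genes. Of all tested genes 46.9% were called, 22.7% higher and 24.2% lower. The median log2 fold change of the 36 genes was 0.41, against 0.03 over all tested genes. Ifi27l2a, Isg15, Ifi204, Oas1a, Mx2 and Trim30a rose at least 2-fold, and Samhd1, Oasl2 and Adar fell. With offsets for GC content and length, 10 rose and 1 fell, against 17.1% and 17.3% of all genes, and the median was 0.30, against 0.00. Both fits called 9 genes higher, namely Ifi27l2a, Mx2, Oas1a, Mx1, Trim30a, Rtp4, Zbp1, Irf9 and Parp9. No gene was called lower in both fits, as the 1 that fell with offsets was Eif2ak2. Under upper-quartile scaling, which moved the median of all genes to 0.19, 19 rose and 2 fell, while 5274 of all genes were called higher and 3447 lower (47.7% in all, 28.9% and 18.9% by direction), against 4148 and 4431 in the fit reported here.

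The number called depended on which libraries were included. Without Pkd1 KO library 2 only 3 of the 36 were called higher, against 12.5% of all genes. Without Pkd1 KO library 3 the number was 7, against 15% of all genes, and without control library 1 it was 8, against 13.9%. In the offset fit without Pkd1 KO library 2 it was 1, and the share of all genes called in that fit was not recorded. Without control library 3, 5 were called lower, against 28.8% of all genes. Ifi27l2a, Trim30a and Ifi204 kept the call whichever library was left out, while the other 12 lost it in at least 1 such fit, and Adar and Samhd1 kept theirs in the lower direction. The 3 Pkd1 KO kidneys lay above all 3 controls in 17 of the 36 genes, below them in 5, and overlapped them in 14. Over all tested genes the groups did not overlap in 61.2%, with Pkd1 KO kidneys above all controls in 31.2% and below them in 30%.

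**Figure D1:**
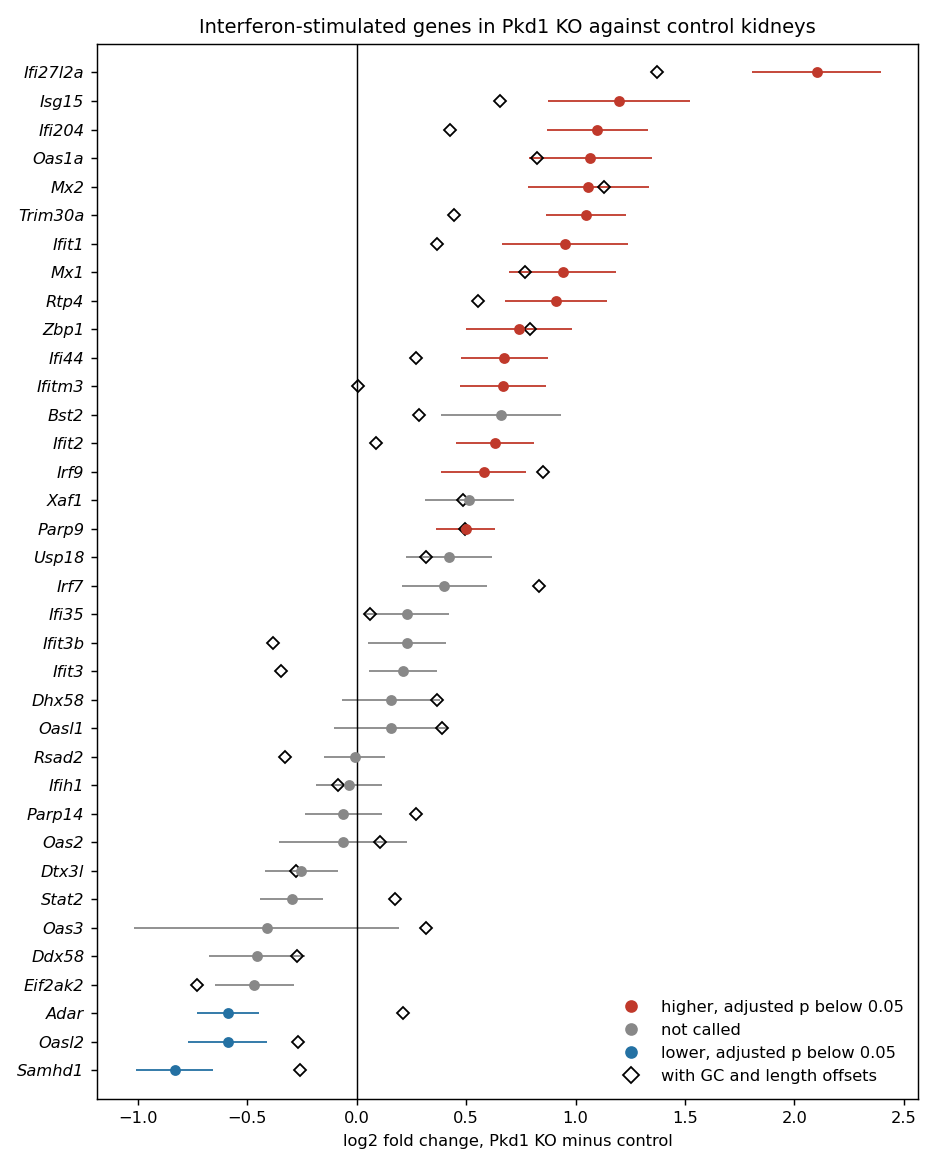
Log2 fold change of each of the 36 interferon-stimulated genes, Pkd1 KO minus control, with bars of ± 1 standard error and 3 kidneys per group; colour gives the call, and open diamonds give the value with GC content and length offsets. Ifi27l2a stood at 2.10 at the top and Samhd1 at −0.83 at the bottom. The diamonds of Ifit3, Ifit3b, Oas2, Oas3, Adar, Stat2 and Parp14 lay on the other side of 0.

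Promoters were searched for the element on which STAT2 and IRF9 act. RefSeq promoter entries on GRCm38.p6 were found for 25 of the 36 genes and covered 250 bases before to 50 bases after each start. The deposited counts were made on GRCm39, so these coordinates belong to the promoters alone. The response element was searched as a pair of GAAA blocks with any 2 bases between them, on both strands. The response element was found in at least 1 window of 14 of these 25 genes (56%), against 3.99% of all 27025 genes with a window and 3.90% of the 12397 tested ones. By call, the response element stood in 5 of 8 genes that rose, 0 of 3 that fell and 9 of 14 that were not called. The other genes that rose, Ifi27l2a, Ifi204, Mx1, Mx2, Parp9, Rtp4 and Zbp1, had no promoter entry. A difference between these groups was not tested. A match is a run of letters and not a measured binding site, and a window with no match lacks these letters and no more. The windows of Ifit3b, Bst2 and Stat2 did not run on into a GENCODE transcript of the gene, and all of them are counted among the matches in genes that were not called.

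Shown here are the 160 bases before the start of 5 genes, read 5′ to 3′ on the strand of the gene, with matches to the response element, on either strand, in capitals. Isg15 and Ifit1 rose, Rsad2 and Ifit3 carry the same element and were not called, and Oasl2 fell and has no match in its window.
Isg15 (chr4:156200819-156200978, minus strand): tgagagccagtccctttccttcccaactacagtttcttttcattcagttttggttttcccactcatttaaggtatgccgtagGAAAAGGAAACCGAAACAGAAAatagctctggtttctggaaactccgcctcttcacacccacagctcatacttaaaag
Ifit1 (chr19:34640729-34640888, plus strand): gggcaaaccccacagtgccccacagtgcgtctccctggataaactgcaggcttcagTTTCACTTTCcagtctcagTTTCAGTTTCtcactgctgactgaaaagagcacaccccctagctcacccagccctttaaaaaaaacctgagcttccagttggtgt
Rsad2 (chr12:26456453-26456612, minus strand): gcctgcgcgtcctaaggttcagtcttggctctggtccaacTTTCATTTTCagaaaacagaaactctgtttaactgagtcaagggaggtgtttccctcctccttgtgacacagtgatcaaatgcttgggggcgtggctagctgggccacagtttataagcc
Ifit3 (chr19:34583369-34583528, plus strand): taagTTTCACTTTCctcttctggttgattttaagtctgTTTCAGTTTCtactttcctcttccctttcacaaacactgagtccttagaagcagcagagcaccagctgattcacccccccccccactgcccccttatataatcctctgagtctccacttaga
Oasl2 (chr5:114896774-114896933, plus strand): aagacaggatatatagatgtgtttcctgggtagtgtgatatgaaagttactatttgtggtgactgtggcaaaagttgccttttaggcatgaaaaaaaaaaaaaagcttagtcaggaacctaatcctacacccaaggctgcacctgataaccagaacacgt
The 3 Isg15 matches overlap each other in 1 run, whereas Ifit1 and Ifit3 each hold 2 separate matches on the opposite strand and Rsad2 holds 1.

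The IFIT proteins bind viral RNA that lacks host cap marks and block its translation. All 4 genes lie in 1 cluster on chromosome 19, and 2 of them rose. Ifit1 had 10.1, 12.3 and 14.2 CPM in Pkd1 KO kidneys, against 6.39, 3.77 and 8.86 CPM in controls. Every Pkd1 KO kidney lay above every control, with control 2 lowest, and the log2 fold change was 0.95 ± 0.29, edgeR adjusted p = 0.025. Ifit2 had 18.2, 23.5 and 24.5 CPM in Pkd1 KO kidneys, against 11.8, 15.9 and 14.97 CPM in controls, again without overlap (0.63 ± 0.18, edgeR adjusted p = 0.0187). Ifit3 had 14.7, 17.7 and 19.7 CPM in Pkd1 KO kidneys, against 15.6, 14.3 and 15.1 CPM in controls, and the groups overlapped (0.21 ± 0.15, edgeR adjusted p = 0.281). Its near copy Ifit3b had 4.87, 5.08 and 5.59 CPM in Pkd1 KO kidneys, against 5.05, 4.25 and 3.95 CPM in controls (0.23 ± 0.18, edgeR adjusted p = 0.312). Of the 50-base stretches of Ifit3 transcripts, 51.2% also occur in another gene, and 45.0% of those of Ifit3b, so reads of this pair were only partly counted. Reads mapping to several places made up 12.2% to 13.4% in Pkd1 KO libraries, against 8.996% to 10.6% in controls. With offsets the values were 0.37 ± 0.22 for Ifit1, 0.09 ± 0.17 for Ifit2, −0.35 ± 0.15 for Ifit3 and −0.38 ± 0.19 for Ifit3b, none of them called.

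The OAS enzymes sense double-stranded RNA and make an oligoadenylate that activates the nuclease RNase L, and Oasl1 and Oasl2 encode relatives with a ubiquitin-like tail. Of 5 genes on chromosome 5, 1 rose, 1 fell and 3 were not called. Oas1a had 3.19, 4.87 and 3.88 CPM in Pkd1 KO kidneys, against 1.94, 1.297 and 2.49 CPM in controls. The Pkd1 KO kidneys were all above the controls, and the log2 fold change was 1.07 ± 0.28, edgeR adjusted p = 0.0143, with 0.82 ± 0.24 in the offset fit. Since 57.6% of its 50-base stretches occur in Oas1g or Oas1b, the Oas1a value may hold only part of its reads. Oasl2 had 4.71, 5.92 and 6.31 CPM in Pkd1 KO kidneys, against 9.498, 8.56 and 7.47 CPM in controls. All 3 Pkd1 KO kidneys lay below the controls (−0.59 ± 0.18, edgeR adjusted p = 0.0262), and the offset fit gave −0.27 ± 0.16. Oas2 had 1.56, 2.43 and 2.304 CPM in Pkd1 KO kidneys, against 2.84, 1.49 and 2.27 CPM in controls (−0.06 ± 0.29, edgeR adjusted p = 0.876), and Oasl1 had 1.56, 1.97 and 2.48 CPM in Pkd1 KO kidneys, against 2.18, 1.505 and 1.73 CPM in controls (0.15 ± 0.26, edgeR adjusted p = 0.643). Oas3 was the least abundant of the 36 per kilobase of exon and had 118 counts over all libraries. It had 0.0809, 0.410 and 0.426 CPM in Pkd1 KO kidneys, against 0.447, 0.208 and 0.606 CPM in controls (−0.41 ± 0.61, edgeR adjusted p = 0.596). In these 3 genes the groups overlapped.

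Mx proteins are dynamin-like GTPases that trap viral nucleocapsids. Both genes rose, in both fits. Mx1 had 1.21, 1.38 and 1.405 CPM in Pkd1 KO kidneys, against 0.719, 0.709 and 0.651 CPM in controls. The controls were close together and the Pkd1 KO kidneys lay well above them (0.94 ± 0.25, edgeR adjusted p = 0.0139). Mx2 had 1.66, 2.16 and 2.005 CPM in Pkd1 KO kidneys, against 1.01, 0.657 and 1.14 CPM in controls. Here too the groups did not overlap (1.06 ± 0.28, edgeR adjusted p = 0.0139), and the offset fit gave 1.13 ± 0.27.

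Isg15 encodes a ubiquitin-like protein that is attached to other proteins during the interferon response, and USP18 removes it and also dampens receptor signalling. Isg15 had 6.77, 8.99 and 8.21 CPM in Pkd1 KO kidneys, against 3.61, 1.85 and 5.03 CPM in controls. Control 2 was lowest and no control reached the lowest Pkd1 KO kidney. Its log2 fold change was 1.20 ± 0.32, edgeR adjusted p = 0.0157, and with offsets it was 0.65 ± 0.24 and no longer called. Usp18 had 4.41, 4.79 and 5.24 CPM in Pkd1 KO kidneys, against 4.31, 3.15 and 3.32 CPM in controls, without overlap, but the difference did not pass the test (0.42 ± 0.20, edgeR adjusted p = 0.105). Reads of Usp18 that also fell on its opposite-strand neighbour could not be assigned without strand.

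Among membrane restriction factors, IFITM3 hinders the fusion of virus with endosomes and BST2 (tetherin) holds budding virus at the cell surface. Per kilobase of exon Ifitm3 was the most abundant of the 36, at 78.9 CPM per kilobase in Pkd1 KO kidneys and 49.7 in controls. Ifitm3 had 44.8, 59.8 and 55.9 CPM in Pkd1 KO kidneys, against 38.4, 24.9 and 37.7 CPM in controls (0.67 ± 0.20, edgeR adjusted p = 0.0222). The difference was 0.01 ± 0.15 with offsets. Bst2 had 21.7, 31.8 and 27.4 CPM in Pkd1 KO kidneys, against 19.7, 10.1 and 21.5 CPM in controls, and its difference did not pass (0.66 ± 0.28, edgeR adjusted p = 0.0759), although every Pkd1 KO kidney was above every control.

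**Figure D2:**
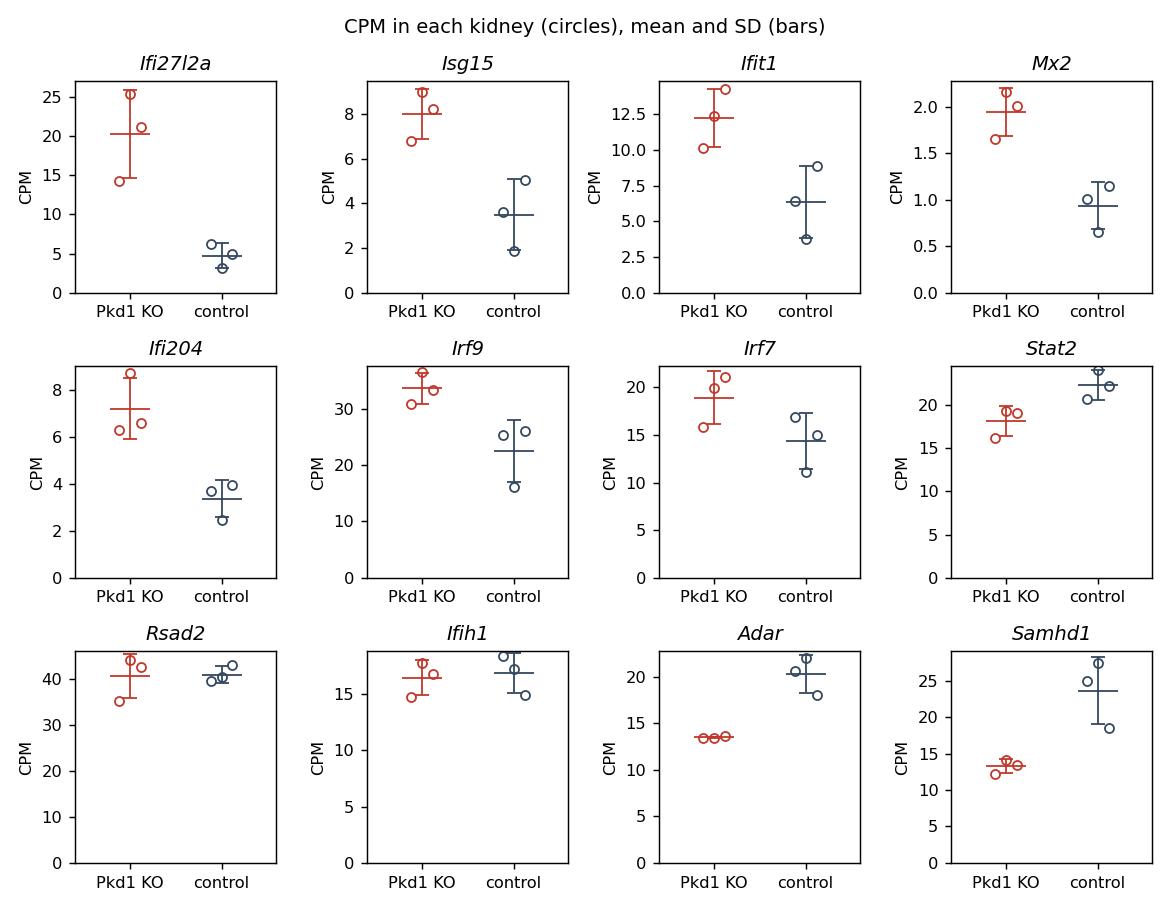
CPM of 12 interferon-stimulated genes in each kidney, Pkd1 KO left and control right, with circles for kidneys and bars for the mean and SD of 3. Ifi27l2a, Isg15, Ifit1, Mx2, Ifi204 and Irf9 had every Pkd1 KO kidney above every control, Stat2, Adar and Samhd1 had every one below, and Irf7, Rsad2 and Ifih1 overlapped.

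Of the 5 sensors of nucleic acids, 2 rose and the 3 RIG-I-like receptors were not called. Ifi204, a member of the interferon-inducible family of DNA-binding proteins, had 6.31, 8.69 and 6.58 CPM in Pkd1 KO kidneys, against 3.69, 2.47 and 3.93 CPM in controls. Its lowest Pkd1 KO kidney was well above its highest control (1.10 ± 0.23, edgeR adjusted p = 0.00595). The offset fit gave 0.43 ± 0.18, and 30.2% of its 50-base stretches occur in related genes such as Ifi211 and Mndal. Zbp1, which senses Z-form nucleic acid and can start necroptosis, had 2.55, 3.28 and 3.17 CPM in Pkd1 KO kidneys, against 2.16, 1.33 and 1.91 CPM in controls (0.74 ± 0.24, edgeR adjusted p = 0.0336). The groups did not overlap and the offset fit, at 0.79 ± 0.23, also called it.

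Ddx58 encodes RIG-I, which recognises RNA with a free triphosphate end, and had 13.5, 17.1 and 16.5 CPM in Pkd1 KO kidneys, against 18.9, 29.1 and 16.8 CPM in controls. Control 2 stood apart at the top and the groups overlapped (−0.46 ± 0.22, edgeR adjusted p = 0.115). Ifih1 encodes MDA5, a sensor of long double-stranded RNA, and had 14.7, 17.8 and 16.8 CPM in Pkd1 KO kidneys, against 18.4, 17.2 and 14.9 CPM in controls (−0.04 ± 0.15, edgeR adjusted p = 0.86). Dhx58 encodes LGP2, a regulator of both, and had 1.76, 2.02 and 2.304 CPM in Pkd1 KO kidneys, against 2.06, 1.57 and 1.84 CPM in controls (0.15 ± 0.22, edgeR adjusted p = 0.591). In both of these genes the groups overlapped, and Dhx58 shares reads with an opposite-strand gene.

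The kinase PKR, encoded by Eif2ak2, stops translation when it binds double-stranded RNA, and ADAR edits such RNA so that it is no longer sensed as foreign. Eif2ak2 had 12.7, 12.4 and 13.5 CPM in Pkd1 KO kidneys, against 15.9, 22.4 and 15.03 CPM in controls. Every Pkd1 KO kidney lay below the controls, but the fit without offsets did not call it (−0.47 ± 0.18, edgeR adjusted p = 0.0585). It was the one gene of the 36 called lower with offsets (−0.73 ± 0.18). Adar had 13.4, 13.4 and 13.6 CPM in Pkd1 KO kidneys, against 20.7, 22.1 and 18.1 CPM in controls, with the Pkd1 KO kidneys almost identical and below every control (−0.59 ± 0.14, edgeR adjusted p = 0.00953). With offsets the Adar difference had the opposite sign (0.21 ± 0.13) and was not called. Adar exons overlap Chrnb2 on the opposite strand, and 20.1% of its 50-base stretches are shared with that gene.

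The transcription factors of the pathway differed among themselves. Irf9, the DNA-binding partner of STAT2, had 30.9, 36.5 and 33.4 CPM in Pkd1 KO kidneys, against 25.3, 16.2 and 25.96 CPM in controls. All Pkd1 KO kidneys were above the controls (0.58 ± 0.19, edgeR adjusted p = 0.0363), and the offset fit gave 0.85 ± 0.20. Irf7, which amplifies interferon production, had 15.8, 19.9 and 21.1 CPM in Pkd1 KO kidneys, against 16.9, 11.1 and 15.03 CPM in controls, and control 1 lay above Pkd1 KO library 1. Its difference was not called without offsets (0.40 ± 0.19, edgeR adjusted p = 0.117) and was called with them (0.83 ± 0.20). Stat2 had 16.2, 19.3 and 19.1 CPM in Pkd1 KO kidneys, against 20.7, 24.1 and 22.2 CPM in controls. Its Pkd1 KO kidneys lay below the controls, but neither this fit (−0.30 ± 0.14, edgeR adjusted p = 0.116) nor the offset fit (0.17 ± 0.13) called it, and the 2 values had opposite signs.

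PARP9 and DTX3L form an ADP-ribosyltransferase and ubiquitin ligase complex that promotes interferon signalling, and PARP14 is a related transferase. Parp9 had 28.7, 32.6 and 34.3 CPM in Pkd1 KO kidneys, against 23.2, 22.7 and 21.9 CPM in controls. The controls spanned a narrow range below the Pkd1 KO kidneys, and both fits called the gene (0.50 ± 0.13, edgeR adjusted p = 0.0155; offset fit 0.49 ± 0.11). Dtx3l, whose exons overlap those of Parp9 on the opposite strand, had 10.2, 11.7 and 12.9 CPM in Pkd1 KO kidneys, against 12.6, 16.01 and 12.9 CPM in controls (−0.25 ± 0.17, edgeR adjusted p = 0.231). Parp14 had 12.6, 16.5 and 15.9 CPM in Pkd1 KO kidneys, against 14.7, 18.5 and 13.8 CPM in controls (−0.06 ± 0.18, edgeR adjusted p = 0.788). Neither gene separated the groups, and reads in the overlap of Parp9 and Dtx3l could not be assigned without strand.

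The other effectors included both ends of the list. Ifi27l2a encodes a small hydrophobic protein induced by interferon. It had 14.3, 25.4 and 21.2 CPM in Pkd1 KO kidneys, against 6.22, 3.095 and 4.89 CPM in controls. The lowest Pkd1 KO kidney lay well above the highest control, and the log2 fold change was 2.10 ± 0.29, edgeR adjusted p = 0.00249, the largest of the 36. The offset fit gave 1.37 ± 0.26. Trim30a, a mouse tripartite-motif protein known to restrain inflammatory signalling, had 13.7, 19.7 and 17.8 CPM in Pkd1 KO kidneys, against 8.27, 7.26 and 9.24 CPM in controls (1.05 ± 0.18, edgeR adjusted p = 0.00339). Both of these genes separated the groups fully, and the offset fit gave 0.45 ± 0.14 for Trim30a and called it.

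Rtp4, a chaperone of receptors that also binds viral replication complexes, had 10.2, 13.1 and 13.2 CPM in Pkd1 KO kidneys, against 6.25, 4.69 and 8.504 CPM in controls (0.91 ± 0.23, edgeR adjusted p = 0.0124). Ifi44, a GTP-binding protein, had 27.5, 29.7 and 30.6 CPM in Pkd1 KO kidneys, against 18.8, 13.3 and 22.95 CPM in controls (0.67 ± 0.20, edgeR adjusted p = 0.022). The groups did not overlap in either gene, and the offset fit called Rtp4 (0.55 ± 0.17) but not Ifi44 (0.27 ± 0.16). Xaf1, which promotes apoptosis by opposing XIAP, had 6.61, 8.53 and 7.78 CPM in Pkd1 KO kidneys, against 4.89, 4.46 and 6.71 CPM in controls. Control 3 lay just above Pkd1 KO library 1, and the gene was not called (0.52 ± 0.20, edgeR adjusted p = 0.0657).

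Samhd1 degrades the nucleotides that reverse transcription needs. It had 12.3, 14.1 and 13.5 CPM in Pkd1 KO kidneys, against 24.997, 27.4 and 18.5 CPM in controls. Every Pkd1 KO kidney lay below every control, and the gene had the largest decrease of the 36 (−0.83 ± 0.18, edgeR adjusted p = 0.00595). In the offset fit the difference was −0.26 ± 0.12 and was not called. Rsad2 encodes viperin, a radical enzyme that makes a chain terminator for viral polymerases. It had 35.2, 44.3 and 42.7 CPM in Pkd1 KO kidneys, against 39.5, 40.5 and 43.01 CPM in controls, with the controls inside the range of the Pkd1 KO kidneys (−0.01 ± 0.14, edgeR adjusted p = 0.959). Ifi35, an interferon-induced leucine zipper protein, had 13.4, 12.5 and 11.3 CPM in Pkd1 KO kidneys, against 11.2, 7.95 and 12.6 CPM in controls (0.23 ± 0.19, edgeR adjusted p = 0.348), and it shares reads with an opposite-strand gene.

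The kidneys of a group were not alike. Pkd1 KO library 1 had the lowest value of its group in 34 of the 36 genes, and the highest came from library 2 in 18 and library 3 in 17. Among controls, library 2 was lowest in 22. Summed over the 36 genes, CPM were 452, 562 and 547 in Pkd1 KO libraries 1 to 3, against 439, 406 and 437 in control libraries 1 to 3. In 7 genes, Ddx58, Eif2ak2, Adar, Stat2, Parp14, Dtx3l and Samhd1, control 2 was instead the highest of all 6 libraries, as the heat map by role shows.

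**Figure D3:**
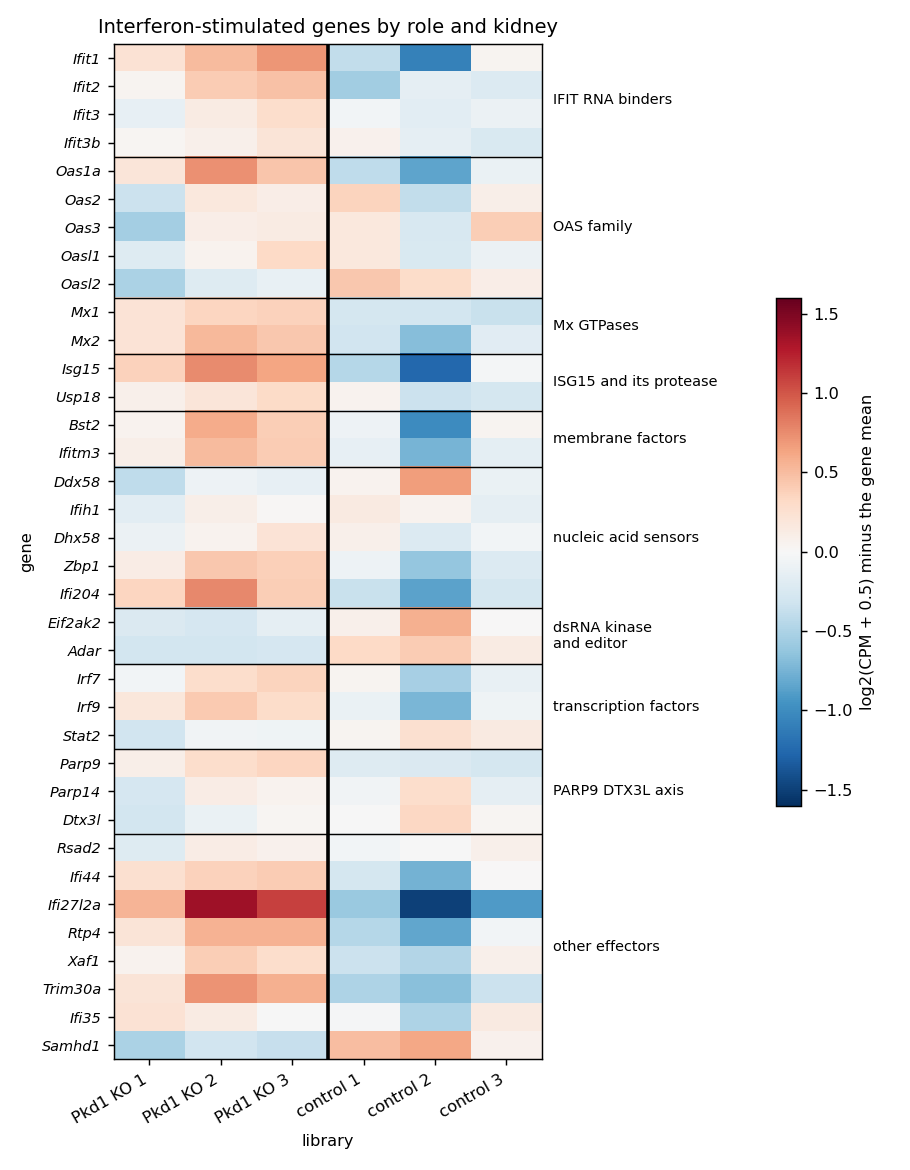
Log2(CPM + 0.5) of each of the 36 genes in each library minus that gene's mean over the 6 libraries, with Pkd1 KO libraries left of the vertical line, controls right of it, and genes grouped by role. Control 2 was the lowest control in 22 genes and Pkd1 KO library 1 the lowest Pkd1 KO library in 34.

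Fold changes of the 36 genes also varied with their exon length. All tested genes with an annotated length were put in 4 bins of equal size by exon length. In the shortest bin, the 9 members there had a median log2 fold change of 0.67, against 0.51 over all genes of that bin. The next bin held 9 members with a median of 0.74, against 0.11. The third held 10 with a median of 0.24, against −0.14, and the longest held 8 with a median of −0.43, against −0.41. All 3 genes that fell were in the longest bin, and Ifi27l2a, Isg15 and Ifitm3 were the shortest of those that rose. In 4 bins of GC content, the members' medians in order of rising GC content were 0.65, 0.22, 0.58 and 0.23, against 0.44, 0.12, −0.11 and −0.47 over all genes. The part of length and GC content in each gene's result was not tested beyond the offset fit.

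**Figure D4:**
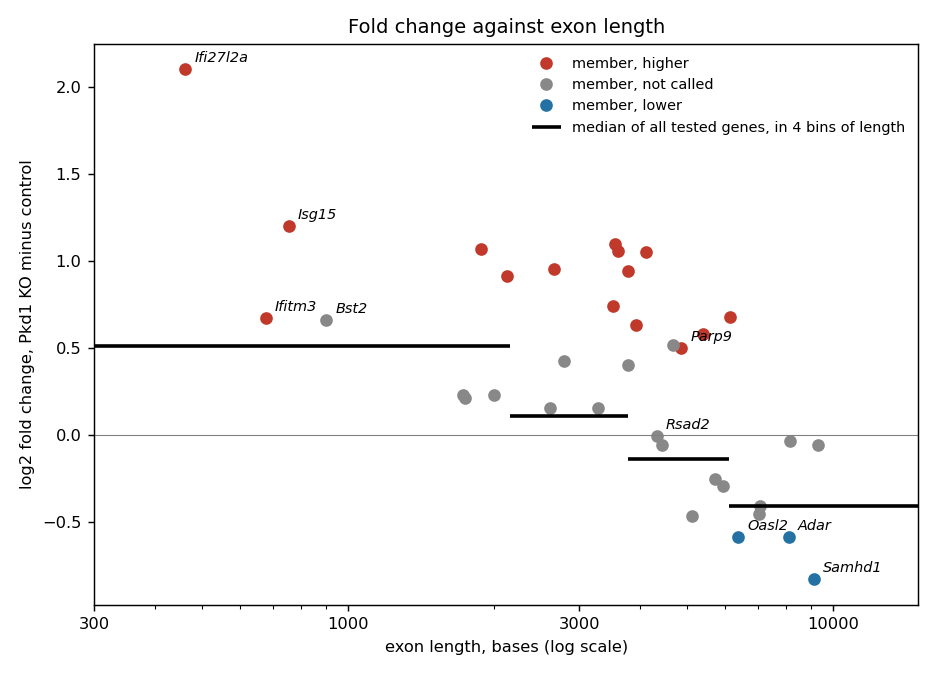
Log2 fold change, Pkd1 KO minus control, of the 36 genes against exon length on a log axis, with horizontal lines for the median of all tested genes in each of 4 bins of exon length. Most members in the 3 bins of shorter genes lie above these lines, and Samhd1, Adar and Oasl2, the genes that fell, lie below the line of the longest bin at −0.41.

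The ligands were at or near the limit of detection. Of 20 type I and III interferon genes, 17 had no count in any library, among them Ifnb1 and every numbered Ifna gene. The other 3, Ifnab, Ifnk and Ifnz, had 7 counts in total over the 6 libraries. A count of 0 allows up to 3 counts, or 0.0474 to 0.0673 CPM depending on the library. Many Ifna genes share sequence, and reads mapping to several places were not counted. The limit covers counting error only, and these counts do not show that interferon was absent. Ifng, the type II interferon of T and NK cells, had 9, 14 and 10 counts in Pkd1 KO libraries 1 to 3, against 0, 0 and 2 in control libraries 1 to 3, and was too low to be tested.

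Of the first steps of signalling, the 2 chains of the type I receptor were not called and all 3 kinases fell. Ifnar1 had 49.97, 49.8 and 52.1 CPM in Pkd1 KO kidneys, against 46.9, 49.3 and 47.1 CPM in controls (0.08 ± 0.12, edgeR adjusted p = 0.585), and Ifnar2, its partner chain, had 20.2, 20.9 and 20.6 CPM in Pkd1 KO kidneys, against 20.8, 19.1 and 22.03 CPM in controls (−0.00 ± 0.13, edgeR adjusted p = 0.984). Neither receptor chain was called without offsets. In Ifnar1 every Pkd1 KO kidney lay just above every control, and the offset fit called it higher (0.42 ± 0.10). Of the interferon-gamma receptor chains, neither Ifngr1 (0.35 ± 0.19, edgeR adjusted p = 0.159) nor Ifngr2 (0.21 ± 0.13, edgeR adjusted p = 0.225) was called. Ifnlr1, which binds type III interferon, was also not called without offsets (0.38 ± 0.23, edgeR adjusted p = 0.206). The offset fit called Ifnlr1 higher (0.65 ± 0.21). Il10rb, the shared second chain of that receptor, had 35.6, 43.3 and 37.9 CPM in Pkd1 KO kidneys, against 24.9, 23.4 and 27.9 CPM in controls. It rose, without overlap (0.62 ± 0.14, edgeR adjusted p = 0.00864), and the offset fit also called it (0.59 ± 0.12).

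Jak1 had 87.1, 91.2 and 84.5 CPM in Pkd1 KO kidneys, against 146, 174 and 116 CPM in controls. Each Pkd1 KO kidney lay below each control (−0.73 ± 0.17, edgeR adjusted p = 0.00845; offset fit −0.45 ± 0.12). Tyk2 had 13.6, 13.1 and 12.5 CPM in Pkd1 KO kidneys, against 20.96, 28.6 and 18.3 CPM in controls. It fell (−0.79 ± 0.18, edgeR adjusted p = 0.00853), but with offsets it was 0.20 ± 0.12 and was not called. Jak2, which serves the interferon-gamma receptor, had 30.1, 32.2 and 30.2 CPM in Pkd1 KO kidneys, against 37.7, 48.5 and 40.2 CPM in controls (−0.45 ± 0.14, edgeR adjusted p = 0.0294). The offset fit also called Jak2 lower (−0.69 ± 0.13). All 3 kinases separated the groups.

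Irf1, a factor that acts downstream of interferon-gamma in particular, had 17.1, 24.4 and 23.9 CPM in Pkd1 KO kidneys, against 13.5, 14.2 and 15.998 CPM in controls. It rose in both fits (0.58 ± 0.17, edgeR adjusted p = 0.0242; offset fit 0.84 ± 0.17).

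**Figure D5:**
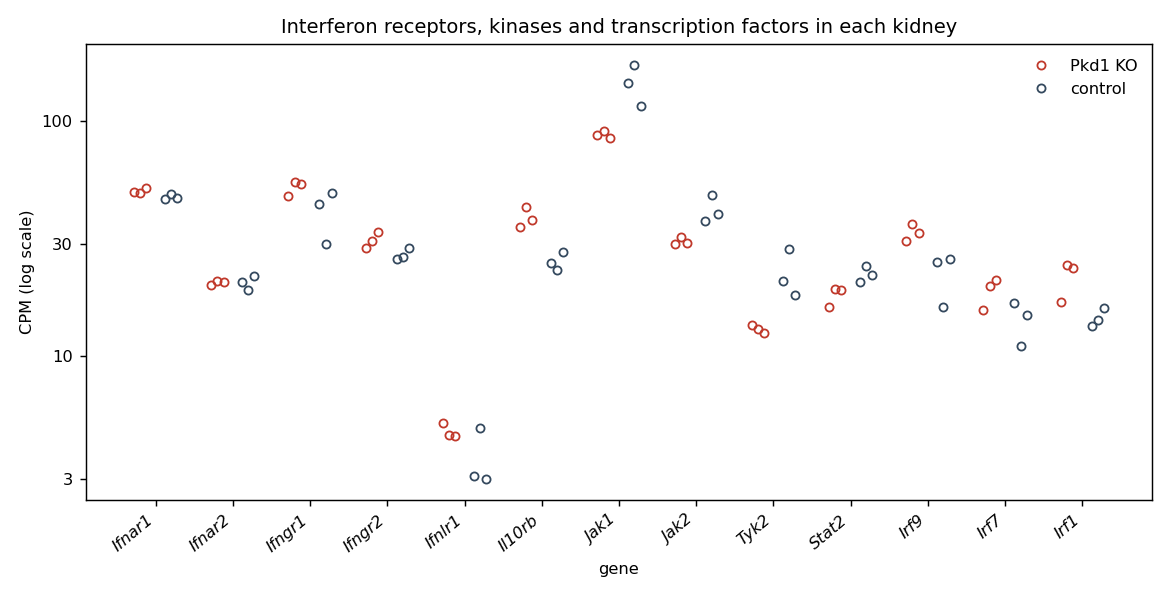
CPM on a log axis of interferon receptors, kinases and transcription factors in each kidney, Pkd1 KO left and control right for each gene. Jak1, Jak2, Tyk2 and Stat2 lie lower in every Pkd1 KO kidney than in any control, and Irf9, Irf1, Il10rb and, narrowly, Ifnar1 lie higher. Stat2 and Ifnar1 were not called without offsets.

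Upstream of the ligands, 16 genes that lead to interferon production were tested, of which 1 rose and 4 fell, while 22.7% of all genes were called higher and 24.2% lower. With offsets 3 rose and 3 fell, while the shares of all genes were 17.1% and 17.3%. Cgas, the sensor of cytosolic DNA, had 2.04, 2.95 and 2.46 CPM in Pkd1 KO kidneys, against 0.913, 0.847 and 1.28 CPM in controls. It rose in both fits (1.30 ± 0.26, edgeR adjusted p = 0.00519; offset fit 1.09 ± 0.24). The adaptor genes Traf3 (−1.44 ± 0.26, edgeR adjusted p = 0.00355), Mavs (−0.83 ± 0.17, edgeR adjusted p = 0.00555) and Ticam1 (−0.74 ± 0.18, edgeR adjusted p = 0.0114) fell, as did Zcchc3 (−0.62 ± 0.16, edgeR adjusted p = 0.0144), a cofactor of DNA sensing. Traf3 and Mavs also passed in the offset fit. Of 13 tested genes listed as negative regulators of the pathway 1 rose and 2 fell without offsets. With offsets 4 of these 13 rose and 2 fell, against the same shares of all genes, 17.1% and 17.3%. Ube2l6, on this list although it encodes the conjugating enzyme for ISG15, was the gene that rose. It had 11.3, 15.6 and 19.7 CPM in Pkd1 KO kidneys, against 7.67, 4.46 and 9.83 CPM in controls (1.09 ± 0.30, edgeR adjusted p = 0.0175). Nlrx1 (−1.30 ± 0.28, edgeR adjusted p = 0.00665), a mitochondrial regulator, and Rnaseh2c (−0.42 ± 0.14, edgeR adjusted p = 0.041), a subunit of the enzyme that removes ribonucleotides from DNA, fell. The Trex1 identifier had 0 counts in every library. This does not show that its RNA was absent, and whether its reads overlapped another gene was not tested.

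Outside the 36, a further 60 interferon-stimulated genes were tested, of which 25 rose and 12 fell, with a median log2 fold change of 0.52, while 22.7% of all genes were called higher and 24.2% lower. Ifi209 (1.88 ± 0.27, edgeR adjusted p = 0.00259), Epsti1 (1.52 ± 0.27, edgeR adjusted p = 0.00354) and Phf11d (1.48 ± 0.30, edgeR adjusted p = 0.00523) had some of the largest increases, and Pml (−1.26 ± 0.24, edgeR adjusted p = 0.00425), Mov10 (−1.25 ± 0.29, edgeR adjusted p = 0.00836) and Znfx1 (−0.97 ± 0.21, edgeR adjusted p = 0.0065) some of the largest decreases. With offsets 10 rose and 8 fell, close to the shares of all genes, which were 17.1% and 17.3%. The interferon-inducible GTPases, which act on the vacuoles of intracellular pathogens and respond strongly to interferon-gamma, numbered 17, of which 8 rose and 9 were not called, at a median of 0.70. Gbp8 had 1.48, 2.98 and 2.98 CPM in Pkd1 KO kidneys, against 0.486, 0.277 and 0.875 CPM in controls (2.21 ± 0.44, edgeR adjusted p = 0.00502), and Gbp4 (1.35 ± 0.23, edgeR adjusted p = 0.00305) and Ifi47 (1.48 ± 0.30, edgeR adjusted p = 0.00524) also rose. With offsets 4 of the 17 rose and 2 fell, while the shares of all genes were 17.1% and 17.3%.

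Several macrophage and lymphocyte markers were also called. Of 15 macrophage and monocyte markers, 11 rose, 1 (Csf1r) fell, and none was at 0, while 22.7% of all genes were called higher and 24.2% lower. With offsets 9 rose and 1 fell, while the shares of all genes were 17.1% and 17.3%. Their summed CPM was 259, 416 and 361 in Pkd1 KO libraries 1 to 3, against 187, 143 and 169 in control libraries 1 to 3. Within each group the order of the libraries at the low end was that of most of the 36 genes, with Pkd1 KO library 1 and control 2 lowest. Lyz2, the macrophage and granulocyte lysozyme, had 97.5, 189 and 165 CPM in Pkd1 KO kidneys, against 26.4, 12.7 and 30.2 CPM in controls (2.70 ± 0.35, edgeR adjusted p = 0.00234). Ccr2, the receptor that recruits monocytes, had 15.8, 23.9 and 18.8 CPM in Pkd1 KO kidneys, against 5.22, 5.24 and 7.18 CPM in controls (1.73 ± 0.21, edgeR adjusted p = 0.00234). Of 12 T and NK cell markers 6 rose and 6 were not called, at a median log2 fold change of 1.11, and with offsets 3 rose, at a median of 0.52. Their summed CPM was 13.8, 18.3 and 13.9 in Pkd1 KO libraries 1 to 3, against 8.29, 6.16 and 8.48 in control libraries 1 to 3. Pkd1 KO library 1 and control 2 were thus lowest here too. The same held for the summed interferon-inducible GTPases, at 170, 263 and 250 CPM in Pkd1 KO libraries, against 190, 134 and 169 CPM in controls.

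Of 6 B cell markers 3 rose, and with offsets 2 did. Their summed CPM was 99.4, 53.2 and 26.9 in Pkd1 KO libraries 1 to 3, against 13.4, 16.0 and 15.6 in control libraries 1 to 3. Here Pkd1 KO library 1 was the highest, unlike in 34 of the 36 genes, where it was the lowest of its group. Plasmacytoid dendritic cells are strong producers of type I interferon. Of the 8 markers of these cells, one of which is Bst2 itself, Siglech had 0.687, 0.935 and 0.663 CPM in Pkd1 KO kidneys, against 0.408, 0.242 and 0.269 CPM in controls and rose (1.31 ± 0.35, edgeR adjusted p = 0.0159), and Klk1, which kidney tubules also express, fell (−1.03 ± 0.19, edgeR adjusted p = 0.00367). The other 6 were not called, and in the offset fit Siglech was not called either (0.95 ± 0.36). Neutrophil markers reached 1.94 to 3.61 CPM in sum in Pkd1 KO libraries, against 1.73 to 1.97 in controls, with Ly6g at 0 counts. Of 7 endothelial markers 6 fell and 1 rose, at a median of −0.65, but with offsets 2 fell and the median was −0.09. Of 10 kidney tubule and podocyte markers 7 fell and 1 rose, and with offsets 6 fell. For all of these marker counts, the shares of all genes were 22.7% higher and 24.2% lower. With offsets those shares were 17.1% and 17.3%. The part of each of these cell types in the results of the 36 genes was not tested.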

How the data were processed

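The authors deposited raw counts of reads per gene, without normalisation, as 7 tables of STAR gene counts, 1 for each run. Cutadapt 4.0, FastQC 0.11.8, STAR 2.6.1e and genome build GRCm39 are named, per the submitters' processing notes, with the annotation used for counting not given in the sources used here. Strand was ignored, as both strand columns held about equal shares, so a gene and its opposite-strand neighbour could not be told apart where they overlap, and STAR leaves out reads that map to several places, which takes reads from genes with close copies. The 4 lines per table that name no gene held 22.9% to 26.3% of reads and were left out of every total and test. Control 1 had 2 runs, which were summed. A chi-square comparison gave 3.59 per gene between these runs, against 26.1 to 32.7 between Pkd1 KO libraries and 75.6 to 257 between controls, so each library was kept as 1 sample.

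Symbols, exon lengths and GC content came from GENCODE M21, joined by identifier (52073 of 56923), and promoter sequences from RefSeq. Genes were tested with the quasi-likelihood test of edgeR 4.0.16 in R 4.3.3, with filterByExpr, TMM normalisation and Benjamini-Hochberg adjustment at 0.05 over 18273 genes; the common biological coefficient of variation was 21.4%. A standard error is the absolute log2 fold change over √F, where F is the test statistic. The offset fit took, per library, a robust loess surface (span 0.3) of log2 CPM relative to the gene mean on GC content and log2 exon length, for 17785 genes (97.3%). It would also remove a real change shared by long or GC-rich genes. Alternatives were RLE and upper-quartile scaling, DESeq2 1.42.0, other filters, a replicate block, 1 run of control 1, 1 strand column, and each library left out.

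On simulated counts for 18273 genes, 3 against 3, the test recovered 2, 35, 50 and 50 of 50 genes changed 1.5-, 2-, 3- and 4-fold and called 9 of 18073 unchanged genes. With a GC content and length trend added, the test called 3737 unchanged genes without offsets and 7 with them. The trend was built from the same 2 properties that the offsets remove, so this does not show that the offsets are right for the real counts. Of 50 genes changed 1.5-fold and 50 changed 2-fold, the test then recovered 20 and 41 without offsets, against 5 and 30 with them. In each simulation 18073 of 18273 genes were unchanged, whereas in the kidney counts 46.9% of tested genes were called. The recovery of changes of each size in the kidney counts themselves was not tested. All 36 members are accounted for. Other lists are given by counts and by called genes with large changes, and fewer were named than the rule allowed. Of 242 list entries 2 matched no identifier. The members and lists were chosen with earlier results of these data known. Results of 1 gene of the signalling list are not reported here.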

Additional observations from a re-analysis of the deposited data

How the results depend on the processing

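Counts of interferon-stimulated genes called higher and lower were 15 and 3 in the reported fit and stayed within 1.5 times of it under RLE scaling (15 and 3), upper-quartile scaling (19 and 2), DESeq2 (15 and 4), no filter (16 and 3), a stricter filter (16 and 3), the deeper run of control 1 alone (15 and 3) and the first strand column (16 and 3). Among all genes, RLE scaling called 22.1% higher and 25% lower, and upper-quartile scaling 28.9% and 18.9%. DESeq2 called 19.1% and 22.2%, no filter 13.4% and 13.2%, and the stricter filter 27.4% and 28%. The deeper run gave 22.5% and 24.1%, and the first strand column 23.2% and 25.1%. The deviations of same-numbered samples had correlations of 0.04, −0.08 and −0.03, and those of differently numbered samples ranged over −0.099 to 0.097. With 3 kidneys per group these values cannot show whether kidneys were paired, and the labels do not say. A replicate block gave 13 and 2, against 19.6% and 20.9% of all genes. The GC content and length offsets gave 10 and 1, against 17.1% and 17.3%. The replicate block with these offsets gave 6 and 1, against 15.3% and 15.1%, so the number higher was close to the share of all genes. Leaving out 1 library at a time gave 3 to 17 higher and 2 to 5 lower, the smallest number higher without Pkd1 KO library 2. In these fits 12.5% to 25.8% of all genes were called higher and 14.6% to 28.8% lower. In the offset fit, a repeat chosen after seeing the data, the range was 1 to 11 higher and 0 to 4 lower, again with the fewest higher without Pkd1 KO library 2. The calls over all genes in these repeats were not recorded, so the range cannot be set against them. Over all genes, 2718 were called higher and 2681 lower under the block with offsets, 2340 and 2731 without Pkd1 KO library 2, and 2635 higher without control library 1, against 4148 and 4431. Of 575 values of single genes over 16 settings, 470 kept direction and call, 58 lost the call, 16 gained it and 31 changed sign, of which 2 belonged to a called gene, Adar. Log2 fold changes that changed sign under upper-quartile scaling were those of Oas2 (0.10), Ifih1 (0.13), Parp14 (0.11) and Rsad2 (0.15). Under the stricter filter they were those of Ifih1 (0.013) and Rsad2 (0.038), and in the first strand column those of Parp14 (0.031) and Rsad2 (0.0090). With offsets they were Ifit3 −0.35, Ifit3b −0.38, Oas2 0.11, Oas3 0.32, Adar 0.21, Stat2 0.17 and Parp14 0.27, and with the replicate block and offsets Ifit3 −0.35, Ifit3b −0.36, Oas2 0.13, Oas3 0.27, Adar 0.22, Stat2 0.17 and Parp14 0.26. With 1 library left out, values ranged over −0.32 to 0.14 for Oas2, −0.77 to 0.0061 for Oas3, −0.16 to 0.036 for Ifih1, −0.20 to 0.048 for Parp14, −0.073 to 0.082 for Rsad2 and −0.029 to 0.30 for Oasl1. The cause of these changes was not tested. Depth limits genes with few counts, such as Oas3 and the ligands.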
